A study of Mus musculus with 7 samples.

Results

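Tetraspanins are small membrane proteins that cross the membrane several times and hold partner proteins together in patches of the cell surface and of endosomes. On B cells they organise the antigen receptor, integrins and MHC class II, and several of them are used as surface markers of B cell subsets. The family members followed here were Cd9, Cd37, Cd53, Cd63, Cd81, Cd82, Cd151, Tspan13, Tspan31 and Tspan32, chosen by gene name. Every probe annotated to one of these 10 genes was taken, 15 of 25697 probes on the array. Of the 10 genes, 9 passed the background filter and were tested among 7425 genes.

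RNA was measured in sorted spleen cells of female C57Bl/6J mice aged 10 weeks on single-colour Illumina bead arrays with 1 array per sample. The 3 populations were naive B cells from naive mice (B220+ CD43-, 2 arrays), plasmablasts (B220mid CD138+, 3 arrays) and plasma cells (B220low CD138+, 2 arrays). Plasmablasts and plasma cells both came from mice on day 3 after lipopolysaccharide (LPS), a bacterial product that drives B cells to secrete antibody. No genetic change is labelled in any group, and naive and LPS-treated mice differ in treatment as well as in the sorted population. The labels number the replicates without saying whether each is a separate mouse, so p-values measure the spread between these samples, and all 7 arrays lay on 1 chip in group order, so place on the chip and group cannot be told apart.

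Levels are normalized log2 signals (1 unit is a 2-fold difference in signal), given array by array with the standard error (SE) or 95% interval of a difference from the model. A probe counted as above background at a detection p under 0.01, scored against the array's own negative controls. 1 limma model of all 7 arrays gave each difference, called where its p after Benjamini-Hochberg adjustment was under 0.05. A probe's brightness depends on its sequence, so each gene was compared between populations and never with another gene.

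The arrays showed part of the sort pattern and also signal of genes used as markers of other cells. Whether that signal came from other cells or from the sorted cells themselves was not tested. Sdc1, which encodes the sort marker CD138, was below background in naive B cells. It was at least 8.58-fold higher in plasmablasts and 8.81-fold higher in plasma cells, with levels of 9.63 and 9.67. Cd79a, a chain of the B cell receptor, was 7.25-fold lower in plasma cells than in naive B cells. Of 9 sort and identity markers, 2 were higher and 4 lower in plasma cells than in plasmablasts, where 28.7% of all genes were higher and 46.0% lower. Prdm1 (3.15-fold) and Irf4 (2.64-fold) were among the lower. Ptprc, the gene of B220, was 1.85-fold higher in plasma cells than in plasmablasts (limma adjusted p = 0.00118), although plasma cells were sorted as B220low. Of 15 myeloid markers with a probe, 9 to 10 exceeded background in naive B cells, 4 on each plasmablast array and 12 to 13 in plasma cells. Their summed linear signal was 31360 to 36810 in naive B cells, 2633 to 6720 in plasmablasts and 59080 to 61330 in plasma cells. The monocyte and macrophage markers Cd14 and Adgre1 were below background on every plasmablast array. The neutrophil marker Csf3r was below background on every naive B cell and plasmablast array. S100a8 and S100a9 of the same list went the other way and exceeded background on every plasmablast array. Their mean levels were 10.82 and 8.87 in plasmablasts (SD 1.02 and 1.10) against 5.94 and 5.21 in naive B cells. In plasma cells 8 of 14 tested myeloid markers were higher and 5 lower than in naive B cells, where 33.3% of all genes were higher and 37.8% lower. Among the lower were Fcna (99.1-fold) and Vcam1 (at least 102-fold), and C1qb stood at 9.75 against 12.35. Lyz2, the brightest of the list in plasma cells, stood at 15.33 there and 12.07 in naive B cells. The summed myeloid signal of plasma cells came mainly from Lyz2, so the sums do not rank the other markers of this list. Of 9 erythroid and platelet markers 7 were above background on both naive B cell arrays and 0 on the 5 LPS arrays, with summed signals of 24290 to 32900 against 299.7 to 331.1. T and NK cell markers were above background for 1 to 2 of 12 genes in naive B cells, 6 to 7 in plasmablasts and 9 in plasma cells (summed signals of 5098 to 5717, 3526 to 4331 and 5035 to 5221), with Cd4, Cd8a and Ncr1 below background in all 3 populations. In naive B cells Cd2 alone exceeded background on both arrays, and the sum there came mainly from it. Cd2 was lower in both LPS populations. Thy1 and Cd3g went the other way, undetected in naive B cells and above background on every LPS array. The sums therefore do not follow the other markers of this list. Tetraspanins such as Cd9, Cd63, Cd82 and Cd151 are made by many cell types, platelets and myeloid cells among them, and Cd53, Cd37 and Tspan32 by other leukocytes. In such sorted pools fewer cells of a type and less RNA per cell cannot be told apart.

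**Figure D1:**
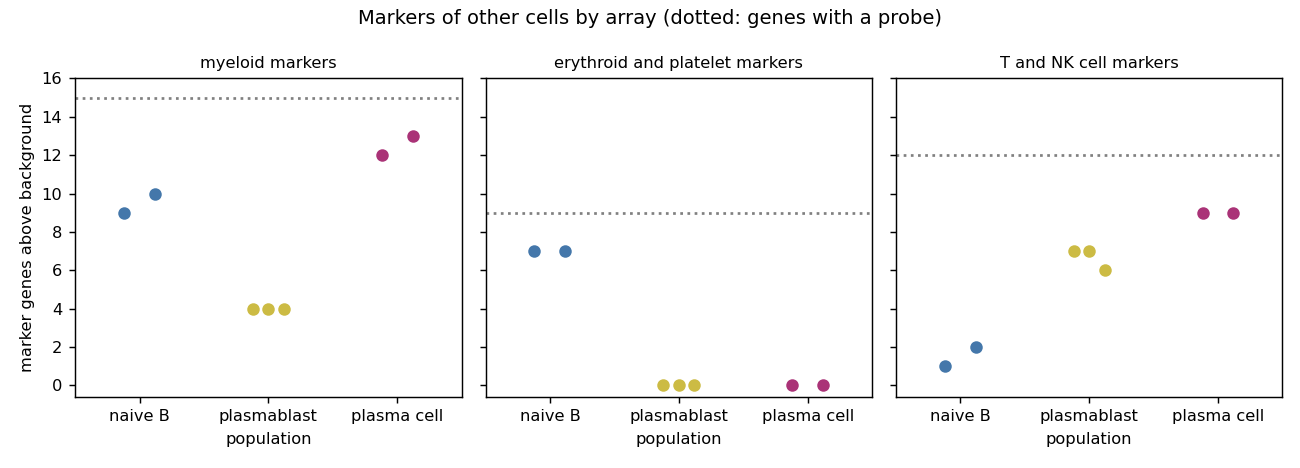
Number of marker genes above background (y axis) on each array (points) in the 3 populations (x axis), for myeloid, erythroid and platelet, and T and NK cell lists. The dotted line is the number of listed genes with a probe. Myeloid markers numbered 4 on each plasmablast array and 12 to 13 on the plasma cell arrays.

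The study paired these arrays with DNA methylation, so the sequences just before the members' starts are shown for 3 genes on chromosome 7 that the results turn on. Cd37 had the widest range of levels, while Cd81 and Tspan32 are neighbours with the same orientation, 47704 bases apart between their starts, and behaved differently. The sequences are the 250 bases before the start in RefSeq on GRCm38.p6, read 5′ to 3′ on the gene's strand, with CG dinucleotides, the sites of DNA methylation, in capitals. Methylation itself was not analysed here.
Cd37, minus strand, chr7:45238840-45239089: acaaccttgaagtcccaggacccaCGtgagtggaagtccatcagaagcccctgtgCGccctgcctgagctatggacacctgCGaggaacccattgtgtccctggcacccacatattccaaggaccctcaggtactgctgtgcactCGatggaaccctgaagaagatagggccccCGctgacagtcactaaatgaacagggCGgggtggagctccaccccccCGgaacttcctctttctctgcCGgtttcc
Cd81, plus strand, chr7:143052500-143052749: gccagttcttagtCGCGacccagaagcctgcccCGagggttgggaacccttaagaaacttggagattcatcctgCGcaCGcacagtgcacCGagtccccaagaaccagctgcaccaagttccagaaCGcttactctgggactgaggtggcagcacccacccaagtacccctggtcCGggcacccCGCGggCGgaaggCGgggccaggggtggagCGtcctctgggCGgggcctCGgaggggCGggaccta
Tspan32, plus strand, chr7:143004796-143005045: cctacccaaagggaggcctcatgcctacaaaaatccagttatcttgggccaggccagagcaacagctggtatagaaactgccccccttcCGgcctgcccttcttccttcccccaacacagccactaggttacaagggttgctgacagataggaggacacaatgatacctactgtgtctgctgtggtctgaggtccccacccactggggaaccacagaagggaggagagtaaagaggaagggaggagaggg

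The Tspan32 window held 1 CG, the Cd37 window 8 and the Cd81 window 16, against a median of 6 over 32851 RefSeq start windows of the same length. Of the other members, the Cd53 window held 2, Cd63 6, Tspan31 7, Cd9 16 and Tspan13 21, while Cd82 (3 to 14 over its 4 starts) and Cd151 (4 and 12 over its 2 starts) depended on the start taken. A GC box (GGGCGG, searched on both strands) was found in the Cd9, Cd37, Cd81 and Tspan13 windows and at some starts of Cd82 and Cd151, and in 32.7% of all windows. These counts describe the letters in the windows only.

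Cd37, Tspan32 and Cd53, the members found mainly on cells of the blood lineage, stood lower in both LPS populations than in naive B cells. Markers of other cells also fell from naive B cells to plasmablasts, 8 of 14 tested myeloid markers (2 rose) and all 7 tested erythroid and platelet markers. Over all genes 37.8% fell and 35.3% rose there. To plasma cells 5 of the 14 fell (8 rose) and all 7 again, where 37.8% of all genes fell and 33.3% rose. The part of these markers in the falls of the 3 genes was not tested. Cd37 encodes a tetraspanin of mature B cells that links to the phosphatase SHP-1 and to survival signalling. Its level was 12.72 and 12.71 in naive B cells, 9.78, 10.12 and 9.93 in plasmablasts and 8.86 and 9.17 in plasma cells. The 3 populations did not overlap, and each step was lower than the last. Plasmablasts lay 6.84-fold below naive B cells (log2 difference -2.77, SE 0.13, limma adjusted p = 5.38e-07) and plasma cells fell to 7.70% of their signal (log2 difference -3.70, SE 0.14, adjusted p = 2.53e-07). The change in plasma cells was larger than that of 96.9% of the genes tested. Between plasma cells and plasmablasts the fall was 1.90-fold (-0.92, adjusted p = 3.13e-04). In that comparison 12 of 14 tested myeloid markers were higher and 0 lower, where 28.7% of all genes were higher and 46.0% lower.

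Tspan32, also called Tssc6 or Phemx, is a tetraspanin of blood cells known from knockout mice to restrain T cell responses. Its level was 12.04 and 12.05 in naive B cells, 9.09, 9.34 and 9.25 in plasmablasts and 10.24 and 10.41 in plasma cells. Plasmablasts were lowest, naive B cells highest, and no arrays of different populations overlapped. The fall from naive B cells was 7.07-fold in plasmablasts (log2 difference -2.82, SE 0.10, limma adjusted p = 1.78e-07) and 3.30-fold in plasma cells (-1.72, adjusted p = 4.02e-06). Plasma cells stood 2.14-fold above plasmablasts (1.10, SE 0.10, adjusted p = 3.13e-05), where 12 of 14 tested myeloid markers were higher (0 lower). Of 9 T and NK cell markers 4 were higher there, among them Thy1, Cd3g and Cd3e, and 3 lower, among them Cd2 and Cd28. Over all genes 28.7% were higher and 46.0% lower in this comparison. The part of either set of markers in the rise of Tspan32 was not tested.

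Cd53, a tetraspanin of nearly all leukocytes that helps recruit protein kinase C beta to the B cell receptor, had levels of 12.71 and 12.41 in naive B cells. On the plasmablast arrays it stood at 11.37, 11.30 and 11.45, and on the plasma cell arrays at 11.66 and 12.11. Plasmablasts were again lowest, but the plasma cell arrays differed from each other by almost as much as they differed from plasmablasts. The fall in plasmablasts was 2.27-fold (log2 difference -1.18, limma adjusted p = 1.51e-04) and in plasma cells 1.59-fold (-0.67, adjusted p = 0.00633), the second missing the threshold once naive B cell replicate 1 was left out (-0.52, adjusted p = 0.0509). Plasma cells were 1.42-fold above plasmablasts (0.51, adjusted p = 0.0146), and without plasma cell replicate 2 this call was lost (0.28, adjusted p = 0.121).

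**Figure D2:**
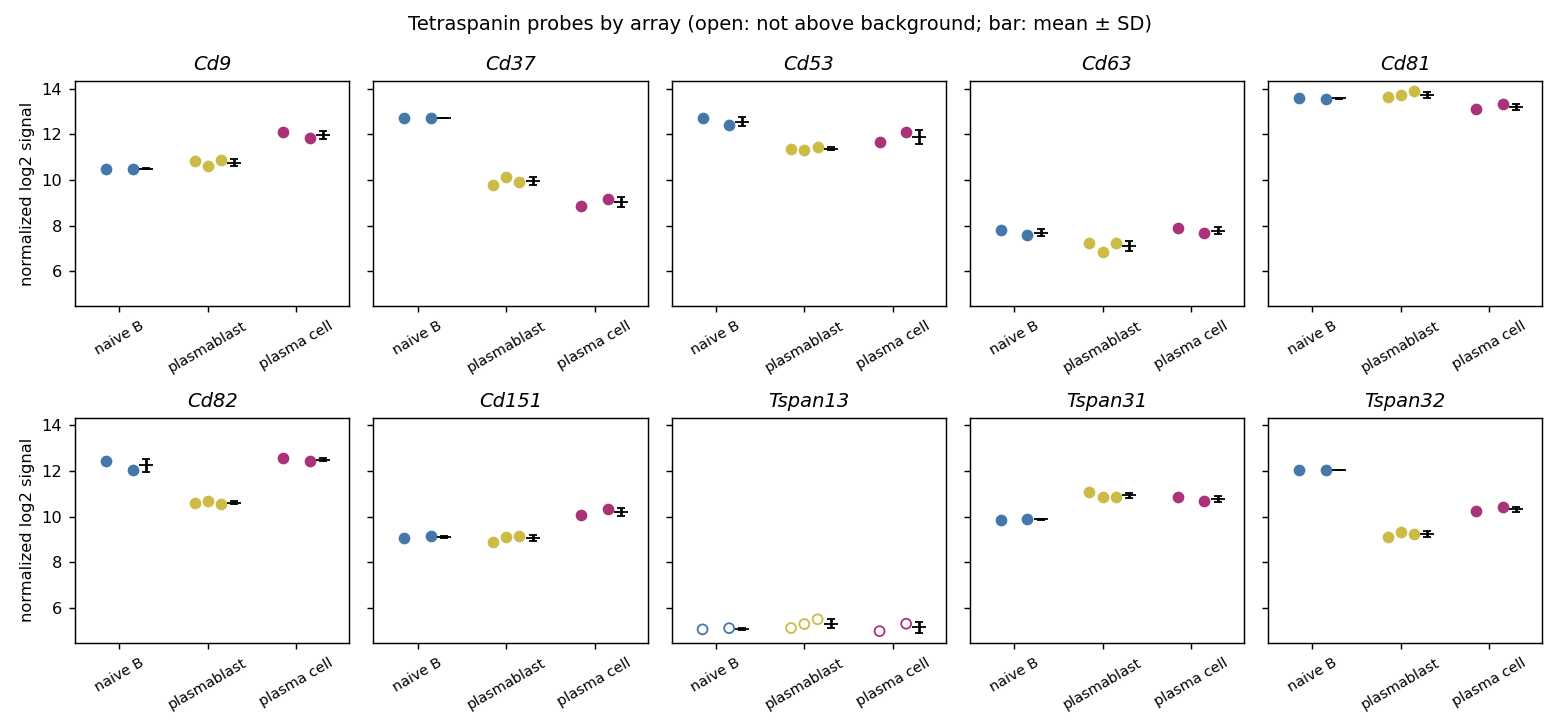
Normalized log2 signal (y axis) of the probe that stands for each gene on each of the 7 arrays, by population (x axis). Filled points were above background, open points were not, and the bar beside each population is its mean ± SD. Signals of different genes come from different probes and are not comparable between panels. Cd37 and Tspan32 drop from naive B cells to both LPS populations, Cd82 is lowest in plasmablasts, Cd9 and Cd151 are highest in plasma cells, and Cd81 stays within a range of 13.11 to 13.89.

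Cd81, a tetraspanin of many cell types that organises receptors on the B cell surface, moved little. Its level was 13.60 and 13.57 in naive B cells, 13.62, 13.72 and 13.89 in plasmablasts and 13.11 and 13.31 in plasma cells. The plasma cell arrays lay below the other 5 arrays. Plasmablasts differed from naive B cells by 0.15 on the log2 scale (95% interval -0.10 to 0.41, limma adjusted p = 0.232), a difference of 0.48 with adjusted p = 0.00177 under 75th percentile scaling. Plasma cells were 1.45-fold below plasmablasts (log2 difference -0.53, adjusted p = 0.00242). Against naive B cells they were 1.30-fold lower (-0.38, adjusted p = 0.0210), a call that did not hold without either naive B cell array, without plasma cell replicate 1 or under 2 other scalings (adjusted p = 0.0636 to 0.111, within a range of 0.00372 to 0.111 over all alternatives). Its neighbour Tspan32 changed 7.07-fold between the populations in which Cd81 had this interval. Cr2, the gene of the complement receptor CD21, was at least 6.50-fold lower in plasmablasts and at least 8.53-fold lower in plasma cells than in naive B cells.

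Cd9, Cd151 and Cd82 bind integrins and their associated adhesion proteins, and all 3 were higher in plasma cells than in plasmablasts. Cd9 marks marginal zone B cells, B-1 cells and plasma cells in the mouse. It stood at 10.50 and 10.48 in naive B cells, 10.84, 10.60 and 10.86 in plasmablasts and 12.11 and 11.86 in plasma cells. The plasma cell arrays were the highest. Plasma cells were 2.82-fold above naive B cells (log2 difference 1.49, SE 0.13, limma adjusted p = 1.80e-05) and 2.33-fold above plasmablasts (1.22, SE 0.12, adjusted p = 3.48e-05). Between plasmablasts and naive B cells the difference of 0.27 missed the threshold (adjusted p = 0.0632), although the groups did not overlap, and it passed under 8 of 16 alternatives (adjusted p = 0.0187 to 0.241).

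Cd151, a partner of laminin-binding integrins, had levels of 9.08 and 9.14 in naive B cells, 8.91, 9.11 and 9.15 in plasmablasts and 10.07 and 10.32 in plasma cells. Naive B cells and plasmablasts overlapped and plasma cells lay above both. The rise in plasma cells was 2.13-fold over naive B cells (log2 difference 1.09, limma adjusted p = 9.62e-05) and 2.21-fold over plasmablasts (1.14, adjusted p = 4.29e-05), and plasmablasts differed from naive B cells by -0.05 (95% interval -0.32 to 0.21, adjusted p = 0.693). Its other 2 probes, fitted among 10113 probes, gave rises over plasmablasts of 1.12 and 1.09. They differed from the first between plasmablasts and naive B cells, at -0.28 (adjusted p = 0.0324) and -0.27 (adjusted p = 0.0588).

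Cd82, known as a suppressor of metastasis that damps integrin and growth factor signalling, followed another course. Its level was 12.46 and 12.03 in naive B cells, 10.62, 10.70 and 10.54 in plasmablasts and 12.56 and 12.45 in plasma cells. Plasmablasts stood apart from the rest, while naive B cells and plasma cells overlapped. Plasmablasts were 3.08-fold below naive B cells (log2 difference -1.62, SE 0.13, limma adjusted p = 1.07e-05) and plasma cells 3.69-fold above plasmablasts (1.88, SE 0.13, adjusted p = 6.56e-06), a larger change than in 90.6% of genes. Plasma cells differed from naive B cells by 0.26 (95% interval -0.08 to 0.59, adjusted p = 0.142), which passed with naive B cell replicate 1 left out (0.47, adjusted p = 0.0151), under cyclic loess (0.45, adjusted p = 0.0222) and under 75th percentile scaling (0.37, adjusted p = 0.0429). The rise of Cd9, Cd151 and Cd82 from plasmablasts to plasma cells came on arrays on which Cd14 was at least 30.9-fold higher and Lyz2, the lysozyme gene of myeloid cells, stood at 15.33 against 10.00. The fall of Cd82 from naive B cells to plasmablasts came with falls in 8 of 14 tested myeloid markers, 2 being higher, and in all 7 tested erythroid and platelet markers. The part of either set of cells in these differences was not tested.

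**Figure D3:**
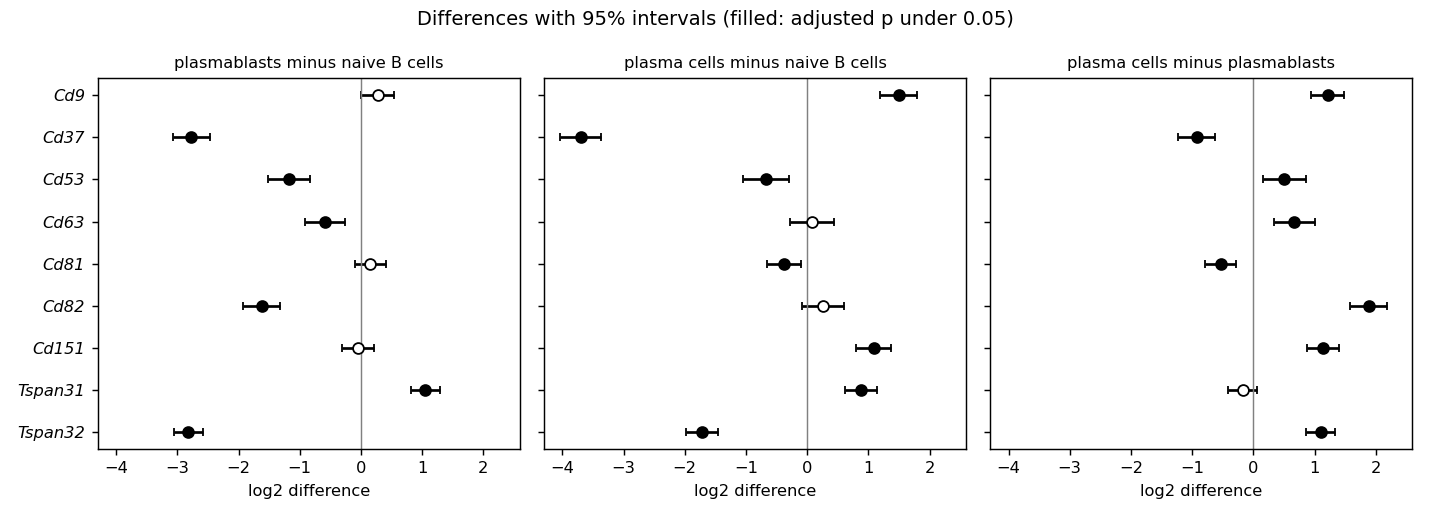
Log2 difference (x axis) of the 9 tested members (y axis) in the 3 comparisons, with 95% intervals from the limma model. Filled points passed an adjusted p under 0.05. Cd37 has the lowest value, -3.70 in plasma cells against naive B cells, and Cd82 the highest, 1.88 in plasma cells against plasmablasts.

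Cd63 marks late endosomes, lysosomes and the vesicles released from them, and its 3 probes were dim. The probe that stands for the gene gave 7.80 and 7.59 in naive B cells, 7.22, 6.86 and 7.24 in plasmablasts and 7.89 and 7.66 in plasma cells. Plasmablasts were the lowest, and naive B cells and plasma cells overlapped. The fall in plasmablasts was to 66.5% of the naive signal (log2 difference -0.59, limma adjusted p = 0.00608) and missed the threshold once naive B cell replicate 1 was left out (-0.48, adjusted p = 0.0537). The rise from plasmablasts to plasma cells was 1.59-fold (0.67, adjusted p = 0.00311), and plasma cells differed from naive B cells by 0.08 (95% interval -0.28 to 0.45, adjusted p = 0.657). A second probe was below background on all 3 plasmablast arrays and above it on the other 4, with signals at least 3.09-fold lower in plasmablasts than in naive B cells (limma adjusted p = 1.80e-05) and at least 2.86-fold higher in plasma cells than in plasmablasts (adjusted p = 3.21e-05). That probe stood for the gene when plasmablast replicate 1 or 2 was left out, and the fitted differences then reached -2.21 and 2.09, against plasmablast readings that were not above background. The third probe exceeded background on the plasma cell arrays alone, and its reading there is not set against the others. On these arrays 8 of 14 myeloid markers fell from naive B cells to plasmablasts (2 rose) and 12 then rose (0 fell), and their part was not tested.

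Tspan31 was the 1 member higher in both LPS populations than in naive B cells by a called difference. Known as a gene amplified in human sarcomas, it stood at 9.88 and 9.90 in naive B cells, 11.08, 10.87 and 10.87 in plasmablasts and 10.86 and 10.67 in plasma cells. Both LPS populations lay above naive B cells and close to each other. The rise was 2.07-fold in plasmablasts (log2 difference 1.05, limma adjusted p = 3.31e-05) and 1.84-fold in plasma cells (0.88, adjusted p = 1.96e-04), with -0.17 between plasma cells and plasmablasts (95% interval -0.41 to 0.07, adjusted p = 0.158). Its second, dimmer probe gave 0.68 in plasmablasts (adjusted p = 0.00178), 0.30 in plasma cells (adjusted p = 0.0996) and -0.39 between them (adjusted p = 0.0284), so the rise in plasma cells rested on 1 of 2 probes. Tspan13 was below background on all 7 arrays, with detection p from 0.144 to 0.444 and scanner signals of 138 to 176, and was not tested.

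The members' calls are set here beside those of all genes. Of the 9 tested, 1 was higher and 5 were lower in plasmablasts than in naive B cells, where 73.1% of all genes were called (35.3% higher and 37.8% lower). In plasma cells against naive B cells 3 were higher and 4 lower, against 71.1% of all genes (33.3% higher and 37.8% lower). Between plasma cells and plasmablasts 6 were higher and 2 lower, against 74.7% of all genes (28.7% higher and 46.0% lower). Calls over all genes in this last comparison leaned downward, 38.4% of them being higher, and under cyclic loess that share was 52.5%. In plasmablasts against naive B cells 5 of 9 changed at least 2-fold (33.0% of all genes), 1 higher (15.5%) and 4 lower (17.5%). In plasma cells against naive B cells 4 did (31.2%), 2 higher (16.9%) and 2 lower (14.3%). From plasmablasts to plasma cells 4 did (28.2%), all 4 higher (15.8%), with 0 lower (12.4%). The populations did not overlap for 8, 7 and 9 of the 9 members, against 82.9%, 86.0% and 82.8% of all genes. The members' median log2 differences were -0.59, 0.08 and 0.67, where those of all genes were -0.02, -0.08 and -0.22. Without regard to sign their medians were 1.05, 0.88 and 0.92, beside 0.62, 0.61 and 0.61 over all genes. The 3 comparisons share arrays, so the courses of the members across them are not independent.

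**Figure D4:**
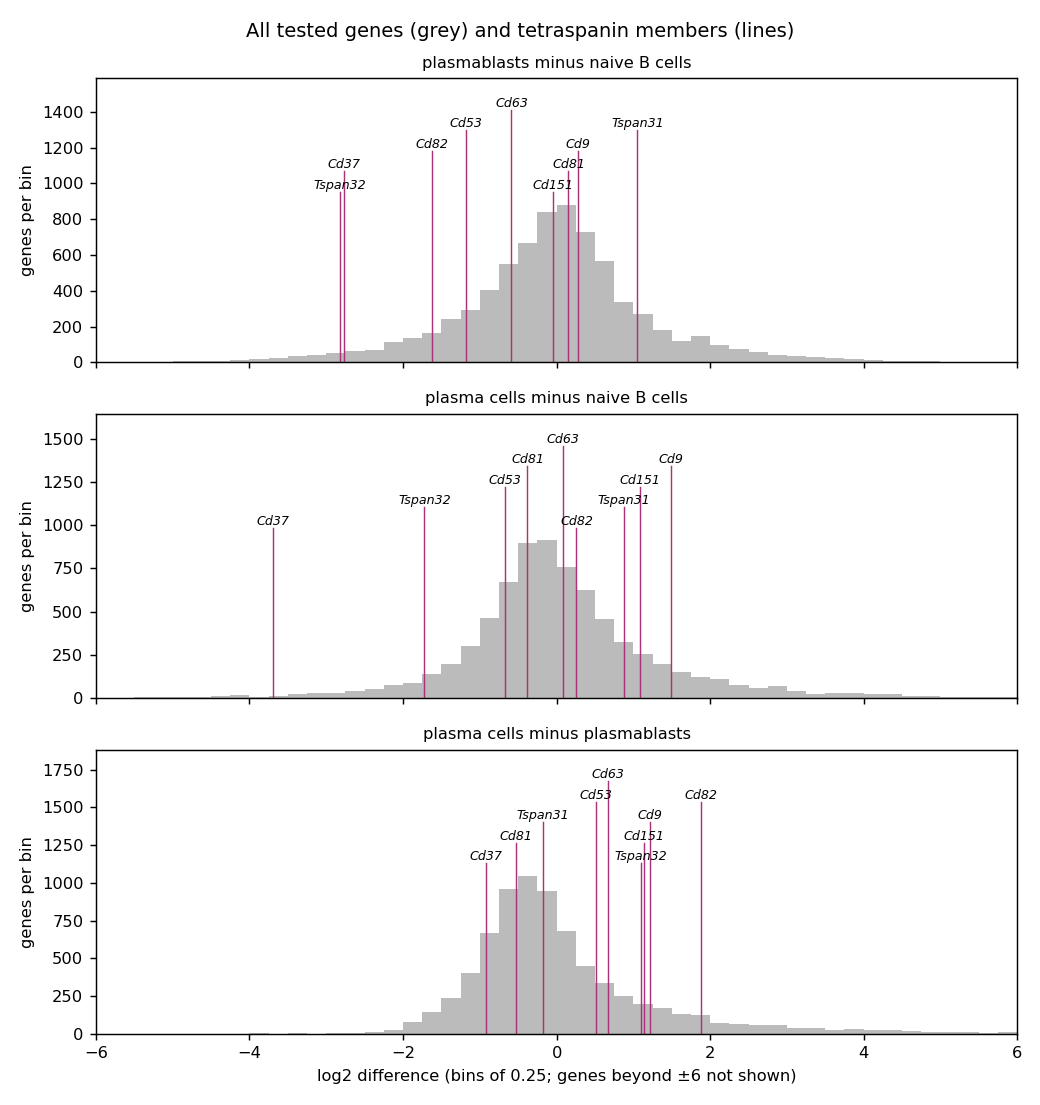
Number of tested genes (y axis) by log2 difference (x axis, bins of 0.25) in the 3 comparisons, with a line at each tetraspanin member, whose height only places its label. Members lie on both sides of 0 in each comparison, from Tspan32 at -2.82 to Tspan31 at 1.05 in plasmablasts against naive B cells.

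Patterns were compared by the root mean square difference of levels over the 7 arrays, each gene centred on its own mean. With 9 tested members among 7425 genes, nearer genes outside the family are all but certain beforehand. The ranks below therefore cannot show whether the members are alike. The 2 genes nearest to Cd37 were Scml4 (0.113 log2 units) and Zfp318 (0.133), and its nearest fellow member, Tspan32, ranked 465 at 0.908. Nearest to Tspan32 were 1600014C10Rik (0.0339) and Armc3 (0.131), and to Cd82 Rassf5 (0.125) and Icam1 (0.126). Cd9 lay closest to Mrpl14 (0.113) and Eif4e3 (0.120), Cd151 to Pgap2 (0.0523) and Itprid2 (0.0690), Cd53 to Maf1 (0.0752) and Cat (0.0798), and Tspan31 to Kctd20 (0.0744) and Cmpk1 (0.0756). Cd9 and Cd151 were each other's nearest member at 0.245, ranked 110 and 205. With 3 populations few shapes are possible, and likeness of this kind is a description.

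Of the 21 other tetraspanin genes listed, 19 had a probe and 6 were tested. In plasmablasts 3 fell and 0 rose against naive B cells, where 37.8% of all genes fell and 35.3% rose. In plasma cells 1 fell and 2 rose against naive B cells, where 37.8% of all genes fell and 33.3% rose. From plasmablasts to plasma cells 4 rose and 0 fell, where 28.7% of all genes rose and 46.0% fell. Their median log2 differences were -0.63, 0.14 and 1.07 (all genes -0.02, -0.08 and -0.22). Tspan2 had levels of 8.07 in naive B cells and 8.18 in plasma cells and was below background on the plasmablast arrays, at least 2.63-fold under naive B cells and 2.86-fold under plasma cells. Tspan17 and Tspan14, both of the subgroup that carries the protease ADAM10 to the surface, were 3.30-fold and 2.79-fold higher in plasma cells than in plasmablasts, and Tspan3 was 3.67-fold lower in plasmablasts than in naive B cells and 1.59-fold higher in plasma cells than in plasmablasts (limma adjusted p = 1.53e-06, 1.46e-06, 2.03e-06 and 9.26e-04). These genes too moved with the myeloid markers from plasmablasts to plasma cells, whose part was not tested.

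**Figure D5:**
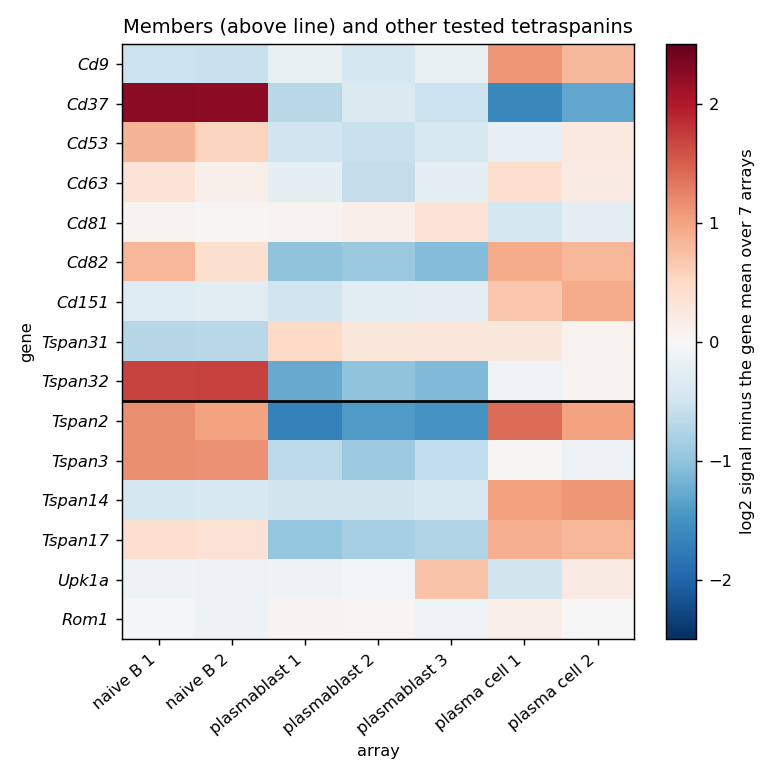
Level of each tested tetraspanin (rows, members above the line) on each array (columns), as log2 signal minus the gene's mean over the 7 arrays. Cd37 and Tspan32 are highest on both naive B cell arrays, and Cd82, Tspan2 and Tspan17 are lowest on the 3 plasmablast arrays.

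Known partners of tetraspanins changed in both directions. Of 24 listed, 22 had a probe and 15 were tested. Over all genes 35.3% were higher and 37.8% lower in plasmablasts than in naive B cells, 33.3% and 37.8% in plasma cells than in naive B cells, and 28.7% and 46.0% in plasma cells than in plasmablasts, with medians of -0.02, -0.08 and -0.22. Of the partners in plasmablasts, 11 were lower and 3 higher than in naive B cells (median -1.30), among them Itgb7, an integrin chain for homing to the gut (8.29-fold lower), Ptpn6, which encodes the CD37 partner SHP-1 (4.97-fold lower), and the membrane linker moesin, Msn (3.99-fold lower). In plasma cells 8 were higher and 4 lower than in naive B cells (median 0.36), with Ifitm2 29.4-fold and Ifitm3 7.88-fold higher. The integrin chain gene Itgb1 stood at 8.94 and 9.12 in plasma cells and at 5.72 (not above background) and 6.65 in naive B cells. From plasmablasts to plasma cells 12 were higher and 2 lower (median 1.82), led by Ifitm2 (74.9-fold), Ifitm3 (18.0-fold), the fungal receptor and CD37 partner Clec7a (at least 5.72-fold) and Itgb7 (7.69-fold). These counts include calls between groups that were both below background on every array. They are Ifitm1, higher in plasmablasts than in naive B cells, and Prkca, higher in plasma cells than in naive B cells. Cr2, lower in plasma cells than in plasmablasts, is another. Clec7a is itself a receptor of myeloid cells, and Ifitm2 and Ifitm3 are also made by them, so these values stand beside the myeloid marker levels above.

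Genes of late endosomes and released vesicles, the compartment of CD63, were listed too, and all 12 were tested. Against naive B cells 8 rose and 0 fell in plasma cells, where 33.3% of all genes rose and 37.8% fell (median 0.72, all genes -0.08), with the membrane scaffold genes Flot2 (4.12-fold higher) and Flot1 (11.85 against 9.85), the secretory Rab gene Rab27a (4.09-fold higher) and the lysosomal membrane gene Lamp2 (2.88-fold higher). Against plasmablasts 11 rose and 0 fell, where 28.7% of all genes rose and 46.0% fell (median 0.78, all genes -0.22), Flot2 by 5.47-fold, Flot1 by 5.13-fold, Lamp1 by 3.11-fold and Lamp2 by 2.79-fold. In plasmablasts against naive B cells 4 rose and 5 fell, where 35.3% of all genes rose and 37.8% fell (median 0.02, all genes -0.02), Rab27a being 1.77-fold higher and the CD63 adaptor gene Sdcbp 1.77-fold lower. Lamp2 depended on the probe. Other probes gave 10.30 and 10.03 in naive B cells, 11.85 and 11.53 in plasmablasts and 12.37 and 12.04 in plasma cells. Their larger step came between naive B cells and plasmablasts. A further probe followed the probe that stood for Lamp2 (11.26, 11.19 and 12.88). Lysosomal genes are abundant in macrophages, and the plasma cell arrays held the highest summed myeloid signal, which came mainly from Lyz2. Of 14 tested myeloid markers, 8 were higher and 5 lower there than in naive B cells. The part of myeloid signal in these rises was not tested.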

How the data were processed

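The deposited scanner table gave an intensity per probe and array, without background subtraction or normalization, and a detection p-value, both exported with GenomeStudio 2011.1 per the submitters' processing notes. A second deposited table held a linear intensity that matched a quantile normalization of the first within 0.0119 log2 units and served as an alternative. In R 4.3.3 with limma 3.58.1, neqc corrected background from the detection p-values, added an offset of 16, quantile normalized and took log2. Symbols came from the platform table, brought up to date by Entrez number through RefSeq genes of GRCm38.p6 (23962 of 23978 named probes). The 10113 named probes that exceeded background on 2 or more arrays were kept. The probe with the highest mean stood for each of 7425 genes. A linear model with 3 group means was fitted with eBayes, and the pipeline was tested on simulated data. Where a gene was below background on every array of the lower group, the fold is given as "at least", measured from the lowest signal above background on those arrays. Above background were 8817 to 9930 probes per array, r within populations was at least 0.994 and at most 0.828 between them, and the number of arrays limits the precision.

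All members are named, with up to 4 called genes of each other list and comparison, by size of change, and the 2 nearest genes in pattern of each member called at 2-fold or more. Cd79a, Cr2, Cd14, Lyz2 and Sdc1 come from these lists, and Ptprc is named besides as a sort marker gene. S100a9, Ifitm1 and Prkca are named besides as limits of the counts. Members and lists were chosen with earlier results of these data known. Promoter windows came from RefSeq on GRCm38.p6. The study's methylation sequencing was not analysed here.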

Additional observations from a re-analysis of the deposited data

How the results depend on the processing

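Under 16 alternatives the counts of called genes and of called members stayed within 1.5 times the values given: called members ran from 5 to 8, 6 to 7 and 7 to 9 in the 3 comparisons. The calls for Cd37, Tspan32, Cd9 in plasma cells, Cd82 against plasmablasts and Cd151 in plasma cells kept their direction and their side of the threshold under each of these alternatives in which they had a value. The labels do not say whether a shared replicate number pairs arrays. Correlations of same-numbered deviations ran from -0.0316 to 0.168, and were 0.168 and 0.0906 between plasma cells and plasmablasts. They cannot decide on pairing, because the deviations in a group of 2 arrays mirror each other. With a replicate block the 5427, 5278 and 5546 called genes numbered 5278, 5227 and 5385, with the members' counts at 6, 7 and 8 as before. Directions turned in differences that missed the threshold. For Cd151 in plasmablasts against naive B cells, leaving out 1 array gave -0.0995 to 0.0227, above 0 without plasmablast replicate 1. For Tspan31 between plasma cells and plasmablasts, cyclic loess gave 0.0244. For Cd63 in plasma cells against naive B cells, the authors' deposited table gave -0.0788 and no background correction gave -0.0798. Leaving out 1 array gave -0.115 to 0.198. The -0.115 came without plasmablast replicate 1, where the second Cd63 probe stood for the gene. In the main fit Cd63 was the median member in plasmablasts against naive B cells, at -0.59. That median was -1.14 under the first 2 settings and -1.17 without plasmablast replicate 1. Whether a change of probe also lay behind the first 2 values was not tested. The median of all genes moved under cyclic loess from -0.08 to 0.09 in plasma cells against naive B cells and from -0.22 to -0.01 against plasmablasts, with members' medians of 0.34 and 0.99 there. The cause of these shifts was not tested. Cd63 and Tspan13 are limited by signal close to background.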
